A study of Homo sapiens with 12 samples.

Results

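A set of 41 human genes, chosen because each spans more than about 200 kb of genomic DNA and including genes of the common fragile sites, was followed in renal cells exposed to a toxicant. The choice was made with earlier results of these data known. Of the 41 genes, 40 had at least 1 probe set that names that gene alone, and MAGI1, a tight-junction scaffold, had none. The 40 genes were covered by 171 probe sets, of which 111 lay over a level of log2 4, just above array background, on at least 3 of 12 arrays. These 111 belonged to 37 genes, here called the measured members, and each gene is represented by its brightest probe set (mean of all 12 arrays). The measured members spanned 217.4 kb (TCF7L2) to 1227 kb (GPHN) in the RefSeq annotation of GRCh38.p14, with 25 of them at 500 kb or more. In all, 11184 genes passed the same limit.

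The cells were HK-2, an immortalised line of human proximal tubule epithelium, grown in a defined medium that contained EGF, hydrocortisone, insulin and transferrin. The groups were Aa, high dose, for 24 h; vehicle control for 24 h; Aa, high dose, for 48 h; and vehicle control for 48 h, with 3 samples each that the labels call biological replicates. Expression was measured in total RNA on Affymetrix arrays, 1 array a sample, in a series that set out to find expression signatures of toxicity. What Aa stands for and its dose in figures were not given in the sources used here. The line is a single one, and p-values measure the spread between these samples.

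A long gene takes RNA polymerase II longer to copy than a short one, since the enzyme travels through every intron before the transcript is finished. Common fragile sites are regions that show gaps and breaks when replication is slowed, and several of them lie inside very long genes such as FHIT, WWOX and IMMP2L. The members have little else in common by function: they include vesicle tethers, membrane scaffolds, kinases, enzymes and transcription factors.

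Promoters of 4 members are shown so that the ends of the range of response can be compared by sequence: SYT1 and GPHN had the most negative fitted changes at 48 h, and MAD1L1 and PRKCE the least negative, among measured members with exactly 1 promoter entry. For SYT1 and GPHN the level under Aa reached background, where fitted changes carry no order, so they stand for members with a large loss and not for a rank. Each line gives the 250 bases before the annotated start, 5′ to 3′ on the gene's strand, from RefSeq on GRCh38.p14. The windows are chr12:78864524-78864773 on the plus strand for SYT1, chr14:66507897-66508146 on the plus strand for GPHN, chr7:2232946-2233195 on the minus strand for MAD1L1 and chr2:45651425-45651674 on the plus strand for PRKCE. Capitals mark GGGCGG, the letters of a GC box. They also mark TATAAA, those of a TATA box, and CCAAT, a common promoter element. Both strands were searched, and no marked match overlaps another.
SYT1: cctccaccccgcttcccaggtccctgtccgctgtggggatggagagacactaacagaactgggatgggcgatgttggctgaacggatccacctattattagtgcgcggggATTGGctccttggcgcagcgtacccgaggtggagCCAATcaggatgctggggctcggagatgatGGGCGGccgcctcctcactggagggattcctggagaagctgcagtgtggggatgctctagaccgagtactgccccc
GPHN: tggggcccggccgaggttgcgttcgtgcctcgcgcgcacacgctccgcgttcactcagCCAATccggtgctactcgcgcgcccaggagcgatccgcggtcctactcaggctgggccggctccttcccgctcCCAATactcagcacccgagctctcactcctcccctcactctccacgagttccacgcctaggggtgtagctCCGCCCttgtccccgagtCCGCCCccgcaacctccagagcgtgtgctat
MAD1L1: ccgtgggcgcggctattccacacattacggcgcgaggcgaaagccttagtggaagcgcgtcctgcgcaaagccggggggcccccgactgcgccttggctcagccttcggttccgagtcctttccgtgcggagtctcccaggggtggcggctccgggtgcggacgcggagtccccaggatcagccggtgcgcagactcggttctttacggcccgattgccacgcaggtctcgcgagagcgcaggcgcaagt
PRKCE: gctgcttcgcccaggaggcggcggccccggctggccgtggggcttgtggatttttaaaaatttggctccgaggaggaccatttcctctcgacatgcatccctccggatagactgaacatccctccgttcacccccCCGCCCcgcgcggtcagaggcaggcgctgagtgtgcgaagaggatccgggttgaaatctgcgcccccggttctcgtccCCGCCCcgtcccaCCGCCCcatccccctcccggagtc

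All 4 windows are rich in G and C, at 62% for SYT1, 68% for GPHN, 68.4% for MAD1L1 and 66.4% for PRKCE, and none holds TATAAA. The CCAAT letters occur 2 times in SYT1 and 2 times in GPHN, and in neither of the other windows. GGGCGG occurs 1 time in SYT1, 2 times in GPHN, 3 times in PRKCE and not in MAD1L1. A promoter entry was matched by symbol for 37 of the 41 members, with 90 entries in all, of which 43.3% held GGGCGG, 10.0% held TATAAA and 32.2% held CCAAT. The shares over all 35116 entries of the same length were 42.6%, 10.7% and 32.0%. The median G and C content was 56% for the members' entries and 58% for all entries. Such matches are letters in a window and do not show a binding site.

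Exposure to Aa was accompanied by a loss of transcript from nearly every measured member. At 24 h, 36 of the 37 measured members fell, 0 rose and RERE did not pass the test, with a median log2 change of -2.58. At 48 h, 36 fell, 0 rose and PRKCE did not pass, with a median of -4.28, or -3.47 with values under log2 4 set to log2 4 (-2.58 again at 24 h). Calls were made by limma at a Benjamini-Hochberg adjusted p under 0.05 over all genes tested. Among all 11184 genes 22.8% fell and 26.3% rose at 24 h (median 0.02), and 33.9% fell and 30.6% rose at 48 h (median -0.03). The Aa and control arrays did not overlap in 36 of 37 members at each time, lower under Aa, against 29% of all genes at 24 h and 36.1% at 48 h. Because the members were chosen with earlier results of these data known, these counts describe the set and are not an independent test.

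Of the 37 measured members, 10 were over log2 4 on control arrays only, so their place in the set already required a difference. Over the 40 members with a probe set and with no limit on level, 33 fell at 24 h and 37 at 48 h, against 12.1% and 18.6% of all 19775 genes. The 37 called lower at 48 h with no limit include FHIT, which is not a measured member. It was under log2 4 on every array, so its call is not read as a loss. The other edge of the choice is the 15 members over log2 4 on all 12 arrays: 14 of them fell at each time, with median log2 changes of -1.59 and -2.31. In bulk RNA, fewer cells that express a gene and less of its RNA per cell cannot be told apart.

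The size of the loss differed widely between members, up to at least 42.8-fold (SYT1 at 24 h). Where an Aa array lay under log2 4, it was set to log2 4 for the fold, which is then given as at least that size. On this scale, the loss at 24 h was at least 16-fold in 8 members, at least 4-fold in 24 and at least 2-fold in 30. Of the other 7, FOXP1, DLG1, CAMTA1 and RERE were measured on every Aa array and changed less than 2-fold, and 3 have only a bound. At 48 h the loss was at least 16-fold in 15, at least 4-fold in 28 and at least 2-fold in 33, CAMTA1 and RERE changed less than 2-fold, and DPYD and NBEA have only a bound. The median member, taken on each array, stood at log2 8.46 to 9.00 on the control arrays of 24 h and at 5.11 to 5.90 on the Aa arrays of 24 h. It stood at 8.75 to 9.21 on the control arrays of 48 h.

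The Aa arrays of 48 h were not alike. Replicate 1 had a median member of log2 5.67 and 13 of 37 members under log2 4. Replicates 2 and 3 had medians of 3.43 and 3.66, with 21 and 20 members under log2 4. Without replicate 1 the number of members that fell at 48 h was again 36, and the median log2 change was -4.61 in place of -4.28. RNA quality was read from the 3′ minus 5′ difference of control transcripts, which was 0.39 under Aa against 0.31 in controls at 24 h (log2), and 0.54 against 0.32 at 48 h. Its part in the members' losses was not tested.

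**Figure D1:**
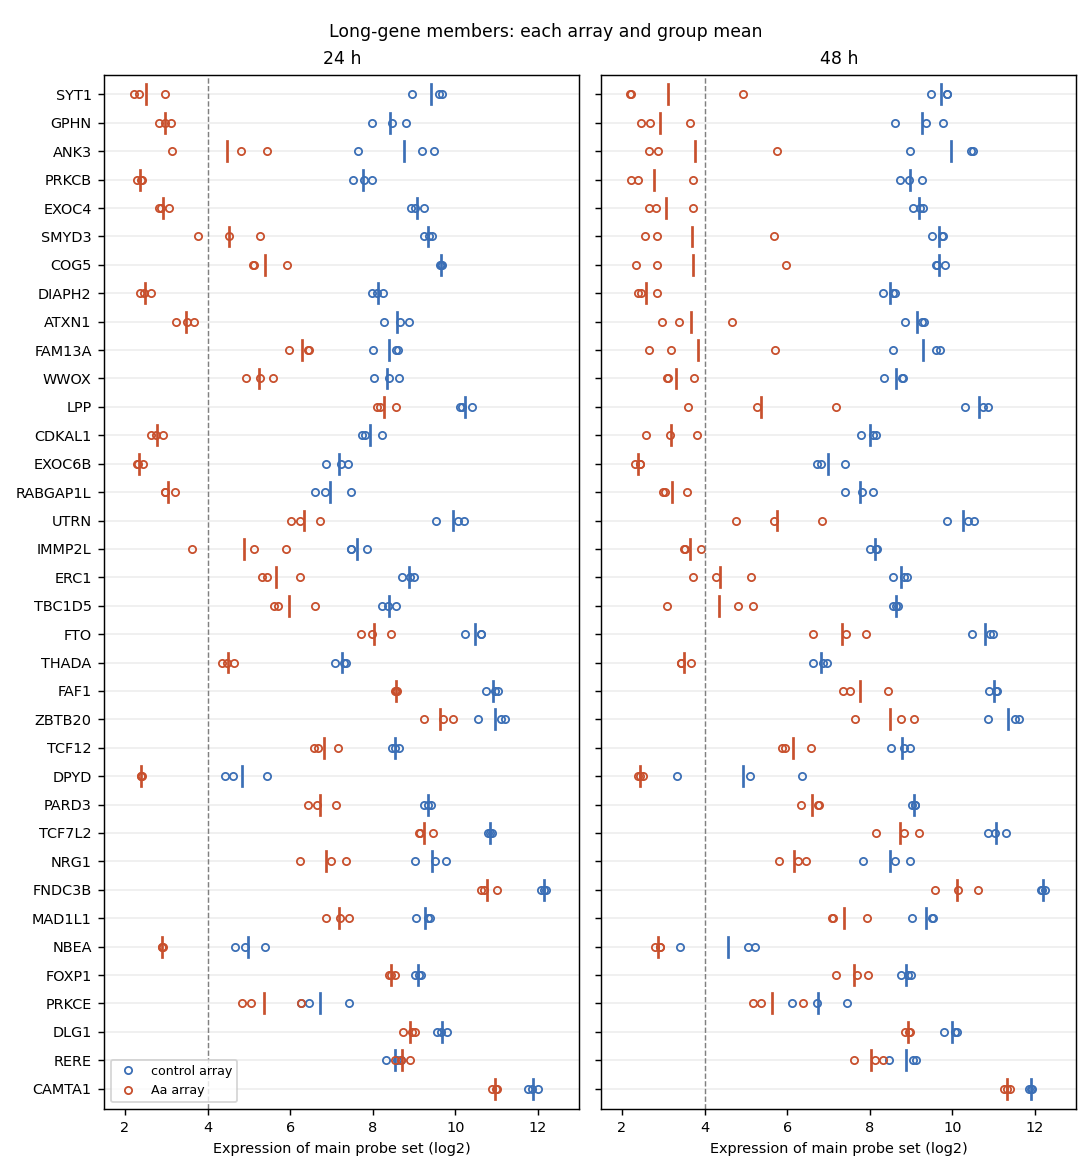
Level of the main probe set (log2) of 36 of the 37 measured members on every array at 24 h (left) and 48 h (right), ordered by the fitted change at 48 h. Open circles are single arrays (control blue, Aa red), bars are means of 3 arrays, and the dashed line is log2 4; the groups overlap at 24 h only for RERE and at 48 h only for PRKCE.

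The identity of the cells was checked against markers. Of 18 epithelial and tubule markers, 10 lay over log2 4 on all 12 arrays, among them PAX8, KRT8, KRT18 and CDH6. LRP2, CUBN, AQP1, SLC34A1, SLC5A2, GGT1, ANPEP and MME, which mark the differentiated proximal tubule, did not pass the limit. No leukocyte marker of 6 passed. TEK and CLDN5 of 6 endothelial, COL1A1, DCN and LUM of 7 fibroblast, and SLC12A1 of 5 distal nephron and podocyte markers did. The mean level of the epithelial list was 7.44 to 7.59 on control arrays and 6.97 to 7.15 on Aa arrays at 24 h, and 7.36 to 7.50 and 6.87 to 7.11 at 48 h; its part in the members' changes was not tested.

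The fragile-site genes named above, WWOX, IMMP2L and FHIT, are described first. WWOX, which encodes an oxidoreductase with WW domains, read 8.38, 8.63 and 8.03 on the control arrays and 4.93, 5.58 and 5.26 on the Aa arrays of 24 h (log2, replicates 1 to 3). At 48 h it read 8.78, 8.80 and 8.35 in controls and 3.74, 3.11 and 3.10 under Aa. Every Aa array lay below every control array, and those of 48 h also lay below those of 24 h. The loss was 8.52-fold at 24 h (log2 change -3.09 ± 0.23 SE, adjusted p = 1.96e-06 by limma) and at least 25-fold at 48 h (adjusted p = 2.64e-08).

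IMMP2L, a catalytic subunit of the mitochondrial inner membrane peptidase, read 7.48, 7.86 and 7.48 in controls and 3.62, 5.12 and 5.90 under Aa at 24 h. At 48 h the values were 8.16, 8.18 and 8.01 against 3.91, 3.49 and 3.52. The Aa arrays of 24 h were spread over more than 2 log2 units and lay below all controls, while those of 48 h were tight and under log2 4. The loss was at least 6.06-fold at 24 h (adjusted p = 0.000362, limma) and at least 17.3-fold at 48 h (adjusted p = 5.75e-06). IMMP1L, the partner subunit of IMMP2L, whose gene spans 77.2 kb, had log2 changes of 0.11 at 24 h and 0.08 at 48 h, neither past the test.

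FHIT, an enzyme that cleaves diadenosine polyphosphates and lies in a common fragile site, gave no usable level. Its single probe set read 2.09, 2.03 and 2.03 in controls and 1.99, 1.99 and 2.01 under Aa at 24 h, and 3.21, 3.30 and 2.57 against 2.00, 2.01 and 2.03 at 48 h. All 12 arrays were under log2 4, so no fold is given. BCAS3 and AUTS2, a regulator of transcription, were likewise under log2 4 on every array.

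Members of the secretory pathway are given next. SYT1, the calcium sensor that triggers vesicle fusion, read 9.68, 9.61 and 8.96 in controls and 2.98, 2.34 and 2.21 under Aa at 24 h. The values at 48 h were 9.86, 9.86 and 9.47 against 4.94, 2.19 and 2.23. Only replicate 1 of 48 h kept a level over log2 4 under Aa, and it was still far below every control. The loss was at least 42.8-fold at 24 h and at least 42.7-fold at 48 h, with adjusted p of 5.25e-06 and 3.86e-06 (limma).

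EXOC4, a subunit of the exocyst, the complex that tethers secretory vesicles to the plasma membrane, read 9.23, 8.93 and 9.02 in controls and 2.87, 2.83 and 3.07 under Aa at 24 h. Those of 48 h were 9.21, 9.29 and 9.05 against 3.73, 2.66 and 2.83. Its transcript thus went from a high level to background on every Aa array, at least 33.4-fold at 24 h and at least 36.3-fold at 48 h (adjusted p = 1.06e-08 and 7.97e-09, limma). EXOC6B, a second subunit, read 6.87, 7.40 and 7.24 against 2.29, 2.43 and 2.31 at 24 h. At 48 h its values were 6.73, 6.81 and 7.41 against 2.44, 2.44 and 2.31. These Aa values were tight and at background, and the lower control level bounds the loss at 8.99-fold at 24 h and 7.91-fold at 48 h (adjusted p = 1.06e-08 and 1.09e-08).

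The other 7 exocyst subunits offer genes of the same complex with shorter spans. EXOC6, at 233 kb, fell 11.3-fold at 24 h and at least 23.6-fold at 48 h, and EXOC2, at 208 kb, fell 2.09-fold and 3.22-fold (limma, adjusted p of 0.00231 or less). EXOC8, at 5.1 kb, fell 1.34-fold and 1.65-fold, and EXOC1, EXOC5 and EXOC7 each fell at 1 time, by 1.21- to 1.40-fold. EXOC3, at 24.1 kb, read 8.75, 8.38 and 8.53 in controls and 8.61, 8.4 and 8.83 under Aa at 48 h, with overlapping groups and no call at either time. By the main probe sets, the 4 genes of this complex over 200 kb had the larger losses, and the 5 genes under 100 kb changed by at most 1.65-fold. With the mean of its probe sets, EXOC3 had a larger change than this at 24 h, upward, which is given after the report.

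COG5, a subunit of the conserved oligomeric Golgi complex, which tethers vesicles within the Golgi, read 9.62, 9.64 and 9.68 in controls and 5.11, 5.93 and 5.13 under Aa at 24 h. At 48 h the arrays read 9.60, 9.81 and 9.62 against 5.97, 2.34 and 2.85. Replicate 1 of 48 h lay near the level of 24 h, while replicates 2 and 3 went under log2 4. The loss was 19.1-fold at 24 h and at least 32.4-fold at 48 h (adjusted p = 0.000559 and 2.95e-05, limma).

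The other 7 COG subunits, with spans of 13.1 to 136 kb, moved in both directions. COG8 (13.1 kb) rose 3.72-fold at 24 h and 2.26-fold at 48 h, COG1 (15.5 kb) rose 2.57-fold and COG4 (43 kb) rose 2.02-fold at 48 h, and COG3 (71.8 kb) rose 1.67-fold at 24 h. COG6, the longest of them at 136 kb, fell 1.53-fold and 2.67-fold, and COG2 (51.5 kb) fell 1.90-fold at 48 h. COG7 passed at neither time. With the replicate number as a block, COG1 and COG4 passed at 24 h as well (adjusted p = 0.0333 and 0.0412).

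**Figure D2:**
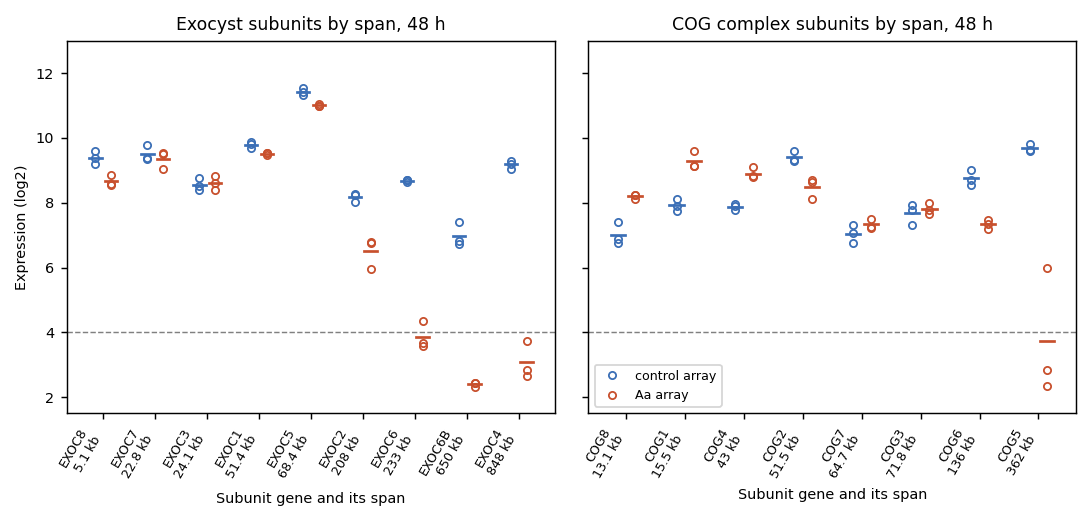
Level (log2) of exocyst subunits (left) and COG complex subunits (right) on the 6 arrays of 48 h, ordered by gene span in kb, which is printed under each name. Open circles are single arrays (control blue, Aa red), bars are means of 3 arrays and the dashed line is log2 4; the group means lie more than 2 log2 units apart for EXOC6, EXOC6B, EXOC4 and COG5.

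The remaining members of membrane traffic fell at both times. ERC1, a scaffold of exocytic sites, fell 9.29-fold at 24 h and at least 19.6-fold at 48 h, and TBC1D5, a regulator of Rab GTPases and retromer, fell 5.31-fold and at least 15.7-fold. RABGAP1L, which carries a Rab GTPase-activating domain, fell at least 7.84-fold and at least 13.5-fold. NBEA, a BEACH-domain protein of membrane traffic, was dim in controls (4.66 to 5.38 at 24 h, 3.41 to 5.21 at 48 h) and read 2.79 to 2.93 under Aa, which bounds its loss at only 1.98-fold and 1.47-fold. Of their relatives, LRBA, a BEACH protein whose gene spans 751 kb, fell 17.5-fold and 40.1-fold. RIMS2, an active-zone protein grouped here with ERC1 and spanning 755 kb, fell at least 13.4-fold and at least 17.7-fold.

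Among scaffolds and cytoskeletal proteins, DIAPH2, a formin that nucleates actin filaments, read 8.24, 7.99 and 8.11 in controls and 2.36, 2.45 and 2.64 under Aa at 24 h. At 48 h it read 8.61, 8.55 and 8.31 against 2.85, 2.47 and 2.40. All Aa arrays lay at background, and the spread within each group was at most 0.24 (SD, n = 3). The loss was at least 17.3-fold and at least 22.5-fold (adjusted p = 9.43e-10 and 8.25e-10, limma).

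GPHN, or gephyrin, which anchors inhibitory receptors at synapses and completes the molybdenum cofactor, has the longest measured gene of the set. It read 8.81, 8.47 and 7.99 in controls against 3.12, 2.97 and 2.82 under Aa at 24 h, and 9.77, 9.37 and 8.62 against 3.64, 2.67 and 2.47 at 48 h. No Aa array reached log2 4, which bounds the loss at 21.5-fold at 24 h and, against brighter controls, at 38.1-fold at 48 h (adjusted p = 5.57e-07 and 1.17e-07, limma). With the replicate number as a block, the control level of GPHN was higher at 48 h than at 24 h (log2 difference 0.83, adjusted p = 0.0192); without it the adjusted p was 0.259.

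ANK3, or ankyrin-G, which links membrane proteins to the spectrin skeleton, varied more between replicates than most members. It read 9.19, 9.48 and 7.63 in controls and 4.81, 5.44 and 3.14 under Aa at 24 h, so that replicate 3 was lowest in both groups. The values at 48 h were 10.46, 10.49 and 8.97 against 5.75, 2.88 and 2.66. The groups did not overlap at either time, and the loss was at least 16.2-fold and at least 41.9-fold (adjusted p = 0.00187 and 9.38e-05, limma). ANK2, its relative of 678 kb, fell at least 8.41-fold and at least 12.4-fold.

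UTRN, or utrophin, the widely expressed relative of dystrophin, was over log2 4 on all 12 arrays and so gives a full measure: 10.06, 10.20 and 9.53 against 6.24, 6.73 and 6.02 at 24 h, and 10.38, 10.51 and 9.87 against 6.85, 5.68 and 4.75 at 48 h. It fell 12.2-fold and 22.6-fold (adjusted p = 5.65e-05 and 6e-06, limma). PARD3, a cell-polarity scaffold, fell 6.08-fold and 5.51-fold. DLG1, a scaffold of the basolateral membrane whose gene is the second shortest measured, at 256.8 kb, fell 1.69-fold and 2.08-fold.

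LPP, a LIM-domain protein of focal adhesions, read 10.40, 10.10 and 10.17 in controls and 8.11, 8.17 and 8.56 under Aa at 24 h. Those of 48 h were 10.85, 10.75 and 10.31 against 7.19, 3.61 and 5.27. FAM13A, a protein with a RhoGAP domain, took a like course, at 8.61, 8.57 and 8.0 against 6.46, 6.43 and 5.97 at 24 h and 9.70, 9.60 and 8.55 against 5.70, 3.19 and 2.66 at 48 h. In both, the Aa arrays lay below the controls at each time, and those of 48 h were widely spread (SD 1.79 for LPP and 1.63 for FAM13A, n = 3). LPP fell 3.85-fold and at least 35.6-fold by its main probe set, and FAM13A fell 4.30-fold and at least 26.3-fold.

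The 24 h calls of these 2 genes were close to the threshold, with adjusted p of 0.0282 for LPP and 0.0178 for FAM13A (limma). That of LPP was lost without any 1 of the 3 controls of 24 h or without Aa replicates 1 or 2 of 24 h (adjusted p 0.0567 to 0.0745). That of FAM13A was lost without control replicates 1 or 2 or Aa replicate 3 of 24 h (0.0517 to 0.0555). With no limit on level the adjusted p were 0.0791 and 0.0543. FAM13B, a relative of FAM13A spanning 114 kb, rose 3.88-fold at 48 h.

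Among kinases and signalling proteins, PRKCB and PRKCE, both isoforms of protein kinase C, stood far apart. PRKCB read 7.98, 7.79 and 7.52 in controls and 2.42, 2.39 and 2.28 under Aa at 24 h, and 9.27, 8.94 and 8.72 against 3.72, 2.21 and 2.40 at 48 h. Every Aa array was at background, a loss of at least 13.6-fold and at least 31.5-fold (adjusted p = 3.76e-07 and 8.76e-08, limma). Its control level was higher at 48 h than at 24 h by 1.21 (log2), which passed with the replicate number as a block (adjusted p = 0.0165), or without Aa replicate 1 of 48 h (0.0167), and not otherwise (0.106).

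PRKCE read 6.26, 6.45 and 7.42 in controls and 4.83, 5.05 and 6.25 under Aa at 24 h, and 6.11, 6.72 and 7.44 against 5.17, 5.37 and 6.39 at 48 h. Replicate 3 was the brightest of each group, so that the groups touched at 24 h and overlapped at 48 h although each Aa array was below the control of its own number. The log2 change was -1.33 ± 0.48 SE at 24 h (2.52-fold, adjusted p = 0.0402, limma) and -1.11 ± 0.48 SE at 48 h (adjusted p = 0.0633). With the replicate number as a block the adjusted p were 8.89e-06 and 1.24e-05. With no limit on level the 24 h call was lost (adjusted p = 0.104), and with scaling to the hybridisation controls PRKCE passed at 48 h (log2 change -1.55, adjusted p = 0.00893). Without the block, the 24 h call was lost without control replicates 2 or 3 or Aa replicates 1 or 2 of 24 h, or control replicate 2 of 48 h (adjusted p 0.0523 to 0.149). At 48 h PRKCE passed without Aa replicate 3 of 24 h, control replicate 1 of 48 h or Aa replicate 3 of 48 h (0.0269 to 0.0414).

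NRG1, a ligand of ERBB receptors, fell 6-fold at 24 h and 4.97-fold at 48 h by its main probe set. Of its 5 measured probe sets 4 fell at 24 h and 3 at 48 h. Probe set 208232_x_at, over log2 4 on all 12 arrays, passed at neither time (log2 changes -0.22 and -0.18, adjusted p = 0.471 and 0.536 over probe sets, limma). Probe set 208230_s_at did not pass at 48 h (-0.55, adjusted p = 0.105). FAF1, an adaptor of ubiquitin-dependent degradation, fell 5.09-fold and 9.43-fold from a high level (10.75 to 11.03 in the controls of 24 h). EGFR, a receptor of the same family as the NRG1 receptors with a gene of 193 kb, fell 2.14-fold at 48 h. Of other protein kinase C relatives, PRKD1 fell at least 15.5-fold at 48 h.

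Enzymes of RNA, chromatin and nucleotides make up the next group. CDKAL1, which adds a methylthio group to a lysine tRNA, read 7.81, 7.74 and 8.23 in controls and 2.93, 2.64 and 2.75 under Aa at 24 h. At 48 h the arrays read 7.78, 8.08 and 8.14 against 3.82, 3.17 and 2.57. All Aa arrays were under log2 4, a loss of at least 15.2-fold and at least 16-fold (adjusted p = 1.27e-07 and 1.17e-07, limma). CDK5RAP1, the mitochondrial counterpart of CDKAL1, with a gene of 42.7 kb, rose 1.68-fold at 48 h.

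SMYD3, a lysine methyltransferase, read 9.36, 9.43 and 9.25 in controls and 3.78, 4.53 and 5.27 under Aa at 24 h. At 48 h it read 9.75, 9.77 and 9.51 against 5.67, 2.55 and 2.85. Replicate 1 was the highest Aa array at 48 h and the lowest at 24 h, and no Aa array came near a control. The loss was at least 26.8-fold and at least 34.7-fold (adjusted p = 0.000144 and 1.67e-05, limma). SMYD4, a relative with a gene of 50.4 kb, rose 2.61-fold at 48 h.

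FTO, which removes methyl groups from adenosines in RNA, fell 5.42-fold at 24 h and 11.1-fold at 48 h and remained over log2 4 on all 12 arrays. THADA, whose yeast relative takes part in tRNA methylation, fell 6.75-fold and at least 7.05-fold, and MAD1L1, a protein of the spindle checkpoint, fell 4.23-fold and 3.94-fold. DPYD, the first enzyme of pyrimidine breakdown, was dim in controls (3.34 to 6.37), so that its loss is bounded at 1.77-fold at 24 h and 1.92-fold at 48 h. With all values floored at log2 4 before the test, its 24 h call was lost (adjusted p = 0.165, limma).

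Among transcription factors and cofactors, ATXN1, or ataxin-1, which binds the repressor CIC, read 8.65, 8.88 and 8.26 in controls and 3.49, 3.67 and 3.24 under Aa at 24 h. The values at 48 h were 9.26, 9.32 and 8.86 against 4.66, 3.37 and 2.96. Of the Aa arrays only replicate 1 of 48 h was over log2 4, and the loss was at least 24.2-fold and at least 30.5-fold (adjusted p = 1.16e-06 and 3.91e-07, limma). CIC itself, with a gene of 27.3 kb, had log2 changes of 0.04 and -0.19, neither past the test.

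The other factors lost less. TCF12, an E protein, fell 3.32-fold at 24 h and 6.22-fold at 48 h, ZBTB20, a zinc-finger repressor, fell 2.51-fold and 7.18-fold, and TCF7L2, the nuclear effector of Wnt signalling, fell 3.02-fold and 5.06-fold. FOXP1, a forkhead repressor, fell 1.57-fold and 2.41-fold. Its 24 h call rests on the main probe set: the other 3 did not pass at 24 h, and the call was lost with the mean of its probe sets (log2 change -0.43, adjusted p = 0.0717, limma) and with probe sets that have no _s_, _x_ or _a_ in their name (-0.25, 0.369). FNDC3B, a membrane protein with fibronectin domains grouped here for want of a clearer class, fell 2.57-fold and 4.21-fold from the highest level of the set (12.07 to 12.25 on control arrays). FOXP2, a relative of FOXP1 spanning 607 kb, fell at least 8.51-fold at 48 h.

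Of the 15 members over log2 4 on all 12 arrays, CAMTA1 and RERE changed least at 48 h. RERE, a corepressor of the atrophin family spanning 465.2 kb, read 8.58, 8.69 and 8.33 in controls and 8.91, 8.67 and 8.53 under Aa at 24 h. Those of 48 h were 9.12, 9.04 and 8.47 against 8.32, 8.12 and 7.61. The groups overlapped at 24 h and did not at 48 h. The log2 change was 0.17 ± 0.22 SE at 24 h (adjusted p = 0.555, limma) and -0.86 ± 0.22 SE at 48 h, a fall of 1.81-fold (adjusted p = 0.00485). Scaling the arrays to the hybridisation controls, which moved the median of all genes to -0.26 at 24 h and -0.47 at 48 h, turned the 24 h value of RERE to -0.12 and that of no other measured member.

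CAMTA1, a calmodulin-binding transcription activator spanning 984.3 kb, read 12.01, 11.86 and 11.75 in controls and 10.88, 10.97 and 11 under Aa at 24 h. At 48 h the arrays read 11.93, 11.89 and 11.86 against 11.32, 11.39 and 11.25. The groups were tight and did not overlap, and the fall was 1.89-fold and 1.49-fold (adjusted p = 1.64e-05 and 0.000267, limma). With the mean of its 5 probe sets in place of the brightest, the log2 changes were -0.09 (adjusted p = 0.482) and 0.31 (adjusted p = 0.0174), so this gene's direction rests on the probe set.

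Other probe sets of the same genes were then set beside the main ones. Of the 111 measured probe sets, 97 fell, 2 rose and 12 did not pass at 24 h, where 23.2% of all 20456 probe sets fell and 23.8% rose. At 48 h, 103 fell, 4 rose and 4 did not pass, where 34% of all fell and 27.2% rose. Of these probe sets, 10 main and 20 others were over log2 4 on control arrays only. Among 29 members with more than 1 measured probe set, every probe set fell at both times in 19. For TCF7L2 all 6 probe sets fell at both times, and for ZBTB20 all 10 fell at 48 h and 9 at 24 h.

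The probe sets of a gene could differ widely in size of change. The range between the most and the least changed probe set of a member had a median of 1.67 on the log2 scale at 48 h. For ATXN1 the log2 changes at 48 h lay between -5.49 and -5.45, and for RABGAP1L between -4.58 and -4.55. For COG5 they ran from -5.96 to -1.03 and for ANK3 from -6.21 to -2.24. For WWOX, 3 probe sets fell at 48 h by 2.10 to 5.33 on the log2 scale and 223747_x_at had -0.13 (adjusted p = 0.607).

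CAMTA1 had probe sets called in opposite directions. Probe set 225692_at fell with the main one, with log2 changes of -0.95 and -0.81. Probe set 1555370_a_at rose, from 7.29, 7.47 and 7.57 in controls to 8.01, 8.41 and 8.19 under Aa at 24 h, and from 6.51, 6.59 and 7.15 to 7.74, 7.63 and 7.94 at 48 h. Its groups overlapped at neither time (log2 changes 0.76 and 1.02, adjusted p = 0.00471 and 0.000472 over probe sets, limma).

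Probe set 227328_at of CAMTA1 likewise rose, by 0.67 and 1.34, and 213268_at rose at 48 h only (0.56, adjusted p = 0.0173). The only other rise was LPP 214902_x_at at 48 h (0.61, adjusted p = 0.0357), where the other 5 probe sets of LPP fell by 4.38 to 5.52. At 24 h the main probe set of LPP had the smallest fall of these 5: the others fell 7.49-fold (235000_at), 12.9-fold (202822_at), 16-fold (241879_at) and at least 5.82-fold (202821_s_at). Of the 6, only the main one and 235000_at passed for the 48 h change minus the 24 h change (adjusted p = 0.0342 and 0.00612 over probe sets, limma). After scaling to the hybridisation controls 0 of these probe sets rose at 24 h and 2 at 48 h. The number that rose at 24 h was also 1 without control replicate 1 or Aa replicates 2 or 3 of 24 h, and the number at 48 h was 2 without Aa replicate 2 of 48 h. The transcripts that each probe set detects were not given in the sources used here.

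**Figure D3:**
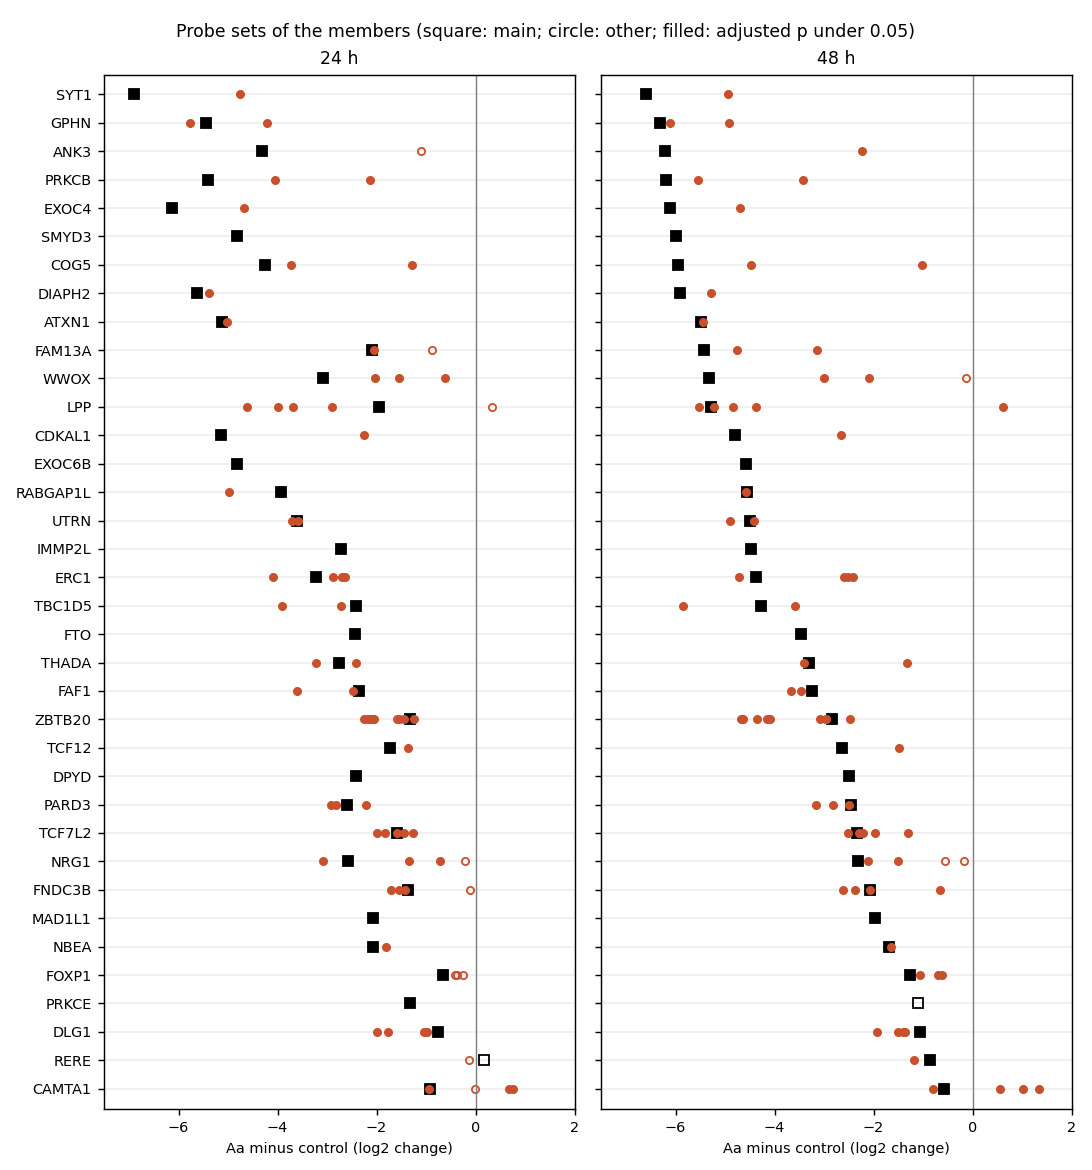
Log2 change, Aa minus control, of every measured probe set of 36 of the 37 measured members at 24 h (left) and 48 h (right). Squares are the main probe set, circles the others, and filled symbols have an adjusted p under 0.05; symbols right of 0 are probe sets of CAMTA1, LPP and, at 24 h, the main one of RERE.

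Whether the loss deepened with time was tested for each member as the 48 h change minus the 24 h change. The fitted fall, which includes values under log2 4, was larger at 48 h in 27 of 37 measured members and smaller in 10. With all values floored at log2 4 it was larger in 29 and smaller in 8. For members at background at both times, that floored comparison reflects control levels only. In the main fit only 4 members passed, all lower at 48 h, where 12.7% of all genes passed in that direction and 6.8% in the other. These were WWOX (-2.24, adjusted p = 0.00248, limma), LPP (-3.34, 0.0296), FAM13A (-3.33, 0.0281) and RERE (-1.03, 0.0395). These sizes include Aa arrays of 48 h under log2 4, which numbered 3 for WWOX, 2 for FAM13A, 1 for LPP and 0 for RERE. With all values floored at log2 4 before the fit, the differences were -1.55 for WWOX (adjusted p = 0.00476), -3.21 for LPP (0.022), -2.61 for FAM13A (0.0171) and -1.03 for RERE (0.0372), and PRKCB and TBC1D5 passed too. Members already at background at 24 h, such as EXOC4 or DIAPH2, could show no further fall. With the replicate number as a block, 15 members passed in this direction and CAMTA1 passed in the other (0.35, adjusted p = 0.0417, limma). The share of all genes that passed with the block was not counted, and the shares above are those without it.

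This count depended on single arrays. Without Aa replicate 1 of 48 h it was 17, and without each of the other arrays it lay between 1 and 6. It was 1 without control replicate 3 or Aa replicate 2 of 24 h, or control replicate 2 or Aa replicate 3 of 48 h, and 2 without control replicates 1 or 2 of 24 h or control replicate 1 of 48 h. WWOX passed without any 1 array, with adjusted p of 0.00133 to 0.00874. LPP was lost in 8 of the 12 cases, FAM13A in 7 and RERE in 9. The share of all genes that passed was not counted in these fits.

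Control arrays of the 2 times were compared as a background to these changes. None of the 37 measured members passed by limma for control at 48 h against control at 24 h, with 8 at an unadjusted p under 0.05, and 0.358% of all genes fell and 0.277% rose. With the replicate number as a block 2 fell (THADA and NRG1) and 4 rose (GPHN, PRKCB, RABGAP1L and DLG1). No share of all genes was counted with the block, so these counts have no background beside them. Without control replicate 3 or Aa replicate 1 of 48 h, 1 member rose.

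Genes related to the members by family or complex were taken from a list of 167, of which 135 were measured. At 24 h 40 fell and 29 rose, with a median log2 change of 0.05, and at 48 h 55 fell and 32 rose, with a median of -0.15. Of the 95 with spans under 100 kb, 12 fell and 26 rose at 24 h, and 24 fell and 30 rose at 48 h. Of the 16 between 100 and 200 kb, 8 fell and 3 rose at 24 h, and 10 fell and 2 rose at 48 h. Of the 24 at 200 kb or more, 20 fell at 24 h and 21 at 48 h and 0 rose, with medians of -1.76 and -1.94. These include ANK2, FOXP2, MAGI3, PARD3B, RIMS2 and DMD, which were over log2 4 on control arrays only. After scaling to the hybridisation controls the rises over all 135 numbered 15 and 16.

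The relative with the largest change in size at 48 h was taken from each other family. Falls came from PARD3B (1070 kb, at least 2.59-fold), TCF4 (414 kb, at least 2.41-fold), MAGI3 (295 kb, at least 7.68-fold), SNTB1 (276 kb, 6.25-fold), FNDC3A (234 kb, 2.77-fold), TBC1D4 (199 kb, 5.35-fold) and WWP2 (179 kb, 4.70-fold). MOCS3 (5.11 kb), SYT11 (25.6 kb) and TTK (37.9 kb) were shorter and also fell, by 2.01-, 2.15- and 1.70-fold. Rises came from FMNL3 (70.9 kb, at least 7.42-fold), UPP1 (20 kb, 3.23-fold), FTSJ1 (10.2 kb, 3.07-fold), ZBTB11 (28.2 kb, 2.76-fold), ZYX (9.77 kb, 2.74-fold), METTL3 (13.2 kb, 1.90-fold), PHAF1 (38.6 kb, 1.86-fold), NSFL1C (24.7 kb, 1.5-fold) and ATN1 (17.9 kb, 1.44-fold). XRCC3 (17.8 kb, log2 change 0.98) passed only with the replicate number as a block (adjusted p = 0.0661 without it and 0.00873 with it), and CTNNB1, FBRS and CAMTA2 did not pass.

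Other long genes were used to see where the members stand. Of a list of 30 further very long genes, 8 were measured and 7 fell at each time, with median log2 changes of -2.65 and -4.03. Of these, SBF2, RBMS3, ASTN2 and DMD were over log2 4 on control arrays only, so their place already required a difference. VTI1A (408.4 kb) read 6.48, 6.85 and 7.34 in controls and 6.47, 6.57 and 7.16 under Aa at 48 h and did not pass. Of 671 measured genes of 200 kb or more that are not members, 491 (73.2%) fell and 23 rose at 24 h, with a median of -1.36. At 48 h 575 (85.7%) fell and 20 rose, with a median of -1.82. The 671 include the 8 genes above and the relatives of 200 kb or more, so these counts overlap. DMD is in both of those lists. Some of the 671 could pass the limit through bright control arrays alone. Of the 440 that were over log2 4 on all 12 arrays, 65.2% fell at 24 h and 80.9% at 48 h. Their medians were -0.885 and -1.44. The most negative fitted changes at 48 h, which include values under log2 4, were those of PTPRG (at least 41.3-fold), ARHGAP6 (at least 41.7-fold) and SLC44A5 (at least 33-fold). The members were not drawn at random from such genes, so their larger median was not tested.

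The share of genes that fell was higher in each longer class of span from 50 kb on. At 48 h it was 22.9% under 10 kb, 22.5% from 10 to 50 kb, 38.8% from 50 to 100 kb, 62.7% from 100 to 200 kb, 85.8% from 200 to 500 kb and 88.5% at 500 kb and over. At 24 h the shares were 18.1%, 14.2%, 20.4%, 40.2%, 72.4% and 84.4%. These last classes hold the members too. Every class, and the correlation below, can include genes that passed the limit on level through control arrays alone. Their place already required a difference, and the shares by class were not recomputed without them. Among non-members of 200 kb or more that passed on every array, 65.2% fell at 24 h and 80.9% at 48 h. Among all genes that passed on every array, 21.4% and 32.8% fell. Over all 11176 genes with a span, the correlation of log span with the change was r = -0.277 at 24 h and -0.376 at 48 h (rho -0.238 and -0.359), across genes of the same arrays, which are not independent.

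Within the members, the correlation of log span with the change was weak, with values under log2 4 set to log2 4. On this scale the losses of 15 members at 24 h and 22 at 48 h are bounds, so span could not be set against the full loss. Over the 37 measured members r was -0.178 at 24 h and -0.125 at 48 h (rho -0.143 and -0.117), across genes of the same 12 arrays. FAM13A (331.2 kb), COG5 (362.5 kb) and PRKCB (384.6 kb) fell at least 26.3-fold at 48 h, while CAMTA1 (984.3 kb) fell 1.49-fold.

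**Figure D4:**
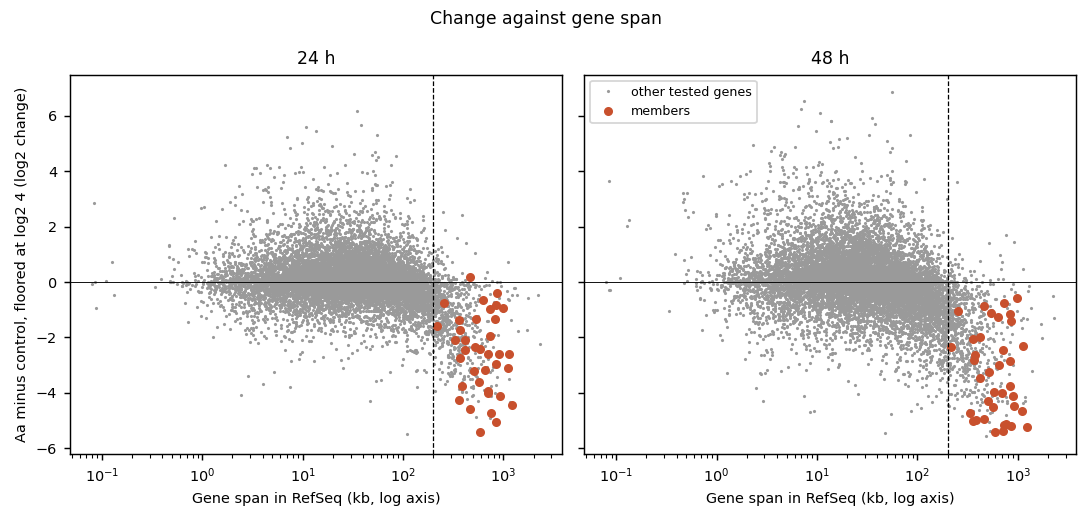
Log2 change, Aa minus control, with values under log2 4 set to log2 4, against gene span in RefSeq (kb, log axis) at 24 h (left) and 48 h (right). Red points are the 37 measured members, grey points the other genes tested, and the dashed line is 200 kb; the members lie below 0 except RERE at 24 h.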

How the data were processed

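RNA from 12 HK-2 samples was measured on Affymetrix arrays. The deposited values are log2 expression that the authors made with GCRMA (background correction by probe sequence, normalisation between arrays, probe set summary), per the submitters' processing notes; neither its version nor which arrays were normalised as a set was given in the sources used here. Array medians lay between 2.91 and 3.02, so a shift of nearly all transcripts in one direction could not be seen. The number of arrays limits the precision (median standard error of a change 0.16).

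Of 54675 probe sets, 41091 named 1 gene in the platform annotation, 1801 several and 11721 none. Manufacturer controls numbered 62. Each of 19775 genes took its brightest probe set, and 11184 genes and 20456 probe sets over log2 4 on at least 3 arrays were tested. Changes were fitted with limma 3.58.1 in R 4.3.3 (lmFit, eBayes) on the 4 group means over 12 arrays, with Benjamini-Hochberg adjustment over all genes or all probe sets. The script was tested on simulated data. Gene spans came from RefSeq.

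Same-numbered samples deviated together in all 18 pairs between groups (r 0.279 to 0.577) and different-numbered ones did not in 36 (-0.371 to -0.0286), so the replicate numbers, taken from the labels' titles, pair the samples; what they share was not given in the sources used here.

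The members, the lists and the rule for named genes were chosen with earlier results of these data known. Values by array are given for the 8 most negative fitted changes at each time, for members with a positive change, for FHIT, WWOX and IMMP2L, and for CAMTA1, LPP, FAM13A, UTRN and PRKCE, which were added after their values were seen. All exocyst and COG subunits are named, and of each other family the largest change at 48 h. The values of 1 measured member, counted in the totals, are not reported here and it is not drawn by name. The alternatives are listed with their effects after the report.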

Additional observations from a re-analysis of the deposited data

Results flagged for a closer look

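The change at 48 h differed from that at 24 h, by limma over all genes, in 19 of 98 named genes tested for it, 13 lower and 6 higher. Among all 11184 genes 12.7% passed lower and 6.8% higher, so these counts lie near the share over all genes. Some of the 98 were named for their change at 48 h, which enters this difference. Each of the 19 also passed with the replicate number as a block. Groups held 3 arrays, so no single array was set against its group.

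Among the members the differences (48 h change minus 24 h change, log2) were -2.24 for WWOX, -3.34 for LPP, -3.33 for FAM13A and -1.03 for RERE, with adjusted p of 0.00248, 0.0296, 0.0281 and 0.0395; with values floored at log2 4 they were -1.55, -3.21, -2.61 and -1.03. Among exocyst and COG subunits they were -0.45 for EXOC1, -1.31 for EXOC6, 0.95 for COG1, -1.07 for COG2, -0.80 for COG6 and -0.72 for COG8, with adjusted p between 0.0122 and 0.0459.

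Among other relatives they were 1.29 for UPP1, -0.78 for FNDC3A, 0.81 for FTSJ1, -0.90 for SNTB1, -1.63 for WWP2 and 0.67 for ZBTB11, with adjusted p between 0.00313 and 0.0421. Among other long genes they were -2.02 for TMEM135, 1.42 for PCDH9 and 3.19 for LEKR1, with adjusted p of 0.0317, 0.00703 and 3.15e-06 (limma). PCDH9 and LEKR1 were over log2 4 on the Aa arrays of 48 h only. Their place already required a rise there, and their differences include values under log2 4.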

How the results depend on the processing

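Levels under log2 4 carry no order, so losses to background are bounds, and depth of loss there cannot be compared between times or genes. Over 74 calls of the 37 measured members (each at 24 h and 48 h), 71 to 74 kept direction and side of the threshold under the block, each scaling, no filter, the floor, limma-trend and the fit of 1 time alone; apart from 1 member whose values are not reported, those that did not are named in the report or here.

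With the replicate block, 15 members fell more at 48 h, 1 fell less, and 2 fell and 4 rose between control times. Shares of all genes with the block were not counted. For Aa against control the block changed the call of PRKCE at 48 h (-1.11, adjusted p = 1.24e-05, limma) and of no other member. The count that fell more at 48 h was 7 with equal array medians, 2 with no filter and 2 with probe sets that have no _s_, _x_ or _a_; 1 fell less with no filter and 1 with limma-trend. Between control times, 2 fell with hybridisation-control scaling, and 1 rose with no filter and 1 with the floor. Leaving out 1 array, 1 to 17 members fell more at 48 h and 0 to 1 rose between control times.

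Hybridisation-control scaling left 0 rising probe sets at 24 h and 2 at 48 h, 15 and 16 rising relatives and 5 rising non-members of 200 kb or more at 48 h. With no filter 1 probe set rose at 24 h. With probe sets that have no _s_, _x_ or _a_ (fewer probe sets), 42 fell and 1 rose at 24 h, 46 fell and 2 rose at 48 h, and 12 non-members rose. With the mean of a gene's probe sets, 1 member (CAMTA1, 0.31) and 12 non-members rose at 48 h. Leaving out 1 array, 1 to 2 probe sets rose at 24 h and 2 to 4 at 48 h. The median change of members at 48 h was -3.39 with no filter, -3.47 with the floor, -3.47 with the mean of probe sets and -3.42 with no _s_, _x_ or _a_.

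Small changes of these genes, none of them called as printed in the report, turned sign. At 24 h hybridisation-control scaling gave -0.12 for RERE, -0.11 for EXOC1, -0.21 for EXOC5, -0.14 for COG2, -0.089 for COG7, -0.25 for CIC, -0.23 for CAMTA2, -0.047 for ZYX, -0.17 for IMMP1L, -0.032 for ATN1 and -0.26 for CTNNB1. At 48 h it gave -0.38 for EXOC3, -0.30 for COG3, -0.16 for COG7, -0.099 for FBRS, -0.36 for IMMP1L and -0.39 for CTNNB1. Quantile normalisation gave -0.00034 for CIC at 24 h.

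The mean of probe sets gave 0.88 for EXOC3, -0.24 for EXOC5, -0.23 for IMMP1L and -0.30 for CTNNB1 at 24 h, and -0.29 for COG3, -0.29 for IMMP1L and -0.063 for CTNNB1 at 48 h. Probe sets with no _s_, _x_ or _a_ gave -0.57 and -0.66 for IMMP1L, and 0.21 for EXOC7 at 48 h. Leaving out 1 array, 24 h values ran from -0.047 to 0.17 for EXOC5, -0.18 to 0.20 for CIC, -0.0081 to 0.17 for CAMTA2, -0.013 to 0.50 for ZYX, -0.068 to 0.11 for CTNNB1, -0.31 to 0.13 for MOCS3 and -0.027 to 0.23 for IMMP1L. The 48 h values ran from -0.052 to 0.17 for EXOC3, -0.25 to 0.28 for IMMP1L, -0.035 to 0.27 for COG3, -0.25 to 0.0094 for EXOC7 and -0.016 to 0.10 for CTNNB1. The cause was not tested for any of these.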

Other observations

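A few long genes outside the set went the other way. NEB, the giant thin-filament protein nebulin, with a gene of 249.1 kb, was under log2 4 on every control array and had a mean of 6.52 ± 0.83 (SD, n = 3) under Aa at 24 h and 7.60 ± 0.33 at 48 h. It rose at least 5.75-fold and at least 12.1-fold (adjusted p = 2.2e-06 and 2.29e-07, limma). LEKR1 (219.8 kb) and PCDH9, a protocadherin (927.5 kb), rose at 48 h by at least 2.98-fold and at least 2.75-fold. NEB, LEKR1 and PCDH9 were over log2 4 on Aa arrays only, so their place among the measured genes already required a difference. These were the largest fitted rises at 48 h among the 20 of 671 non-members of 200 kb or more that rose.

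SOX6, a transcription factor of 772 kb, and DLC1, a RhoGAP protein of 521.3 kb, were over log2 4 on all 12 arrays and rose 3.27-fold and 2.65-fold at 48 h (adjusted p = 0.000142 and 0.000153, limma). DLC1 also rose at 24 h, by 2.09-fold. Both were singled out after their values were seen.

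The genes outside the set whose pattern over the 12 arrays lay closest to the mean of the members, each centred, were RALGAPA2 (r = 0.9982), EXT1 (0.9978), CCDC91 (0.9969), FOCAD (0.9954) and KIF16B (0.995). Their spans lay between 301.3 and 359.7 kb. These r include values under log2 4, which carry no order, in the members' mean and in some of these genes. RALGAPA2 was under log2 4 on every Aa array and KIF16B on some, so the order of the r is not read. EXT1, an enzyme of heparan sulphate synthesis, read 12.11, 12 and 11.81 in controls and 9.11, 9.34 and 9.31 under Aa at 24 h, and 12.24, 12.20 and 12.19 against 9.25, 8.23 and 8.45 at 48 h.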
